A study of Mus musculus with 12 samples.

Results

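The enzymes and the main substrate of O-mannosyl glycan synthesis were followed in white matter astrocytes of mice fed cuprizone, with Mgat5b, the gene that encodes GnT-IX and is deficient in 1 of the groups, at their centre. The genes were chosen by name: Mgat5b, Pomt1, Pomt2, Pomgnt1, Pomgnt2, B4gat1 and Dag1. Of these 7 symbols, 6 had a transcript cluster in the annotated table, 1 each, among 19505 measured genes, and B4gat1 is not analysed here. Expression was measured on 12 arrays, 3 biological replicates in each of 4 groups of C57BL/6 mice: wild-type mice with 0, 3 or 12 weeks of cuprizone, and GnT-IX-deficient mice with 12 weeks. Cuprizone, a copper chelator that kills oligodendrocytes, was given at 0.2% (w/w) of a powdered diet to mice aged 8 to 12 weeks at its start, and no age-matched untreated groups were analysed here, so the length of the diet and age at sampling cannot be told apart. No GnT-IX-deficient mice without cuprizone were analysed here, and neither the labels nor the file headers name the mutated allele. Cells were taken from papain-dissociated white matter with beads against the glutamate transporter GLAST, after a block of Fc receptors.

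O-mannosyl glycans are sugar chains that start with a mannose on serine or threonine. The POMT1 and POMT2 proteins act together in the endoplasmic reticulum to attach that mannose, POMGNT1 adds an N-acetylglucosamine to it, and GnT-IX, which is abundant in brain, adds a second N-acetylglucosamine that makes the chain branch. POMGNT2 and B4GAT1 act instead on the chain of alpha-dystroglycan that carries the laminin-binding polymer. Dag1 encodes dystroglycan, the classical O-mannosylated protein, which links the astrocyte endfoot to the basement membrane.

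The start of Mgat5b, the member that differed between genotypes, is printed with that of Mgat5, its nearest relative, which was not called. Both windows come from RefSeq on GRCm38.p6 and run from 250 bases before to 50 bases after the start of transcription. The Mgat5b window lies at chr11:116918613-116918912 and the Mgat5 window at chr1:127204736-127205035, both on the plus strand. Capitals mark matches, on either strand, to CANNTG, the E-box that basic helix-loop-helix factors bind, or to GGGCGG, the GC box of Sp1-type factors. The windows and motifs were chosen with the gene values known.
Mgat5b: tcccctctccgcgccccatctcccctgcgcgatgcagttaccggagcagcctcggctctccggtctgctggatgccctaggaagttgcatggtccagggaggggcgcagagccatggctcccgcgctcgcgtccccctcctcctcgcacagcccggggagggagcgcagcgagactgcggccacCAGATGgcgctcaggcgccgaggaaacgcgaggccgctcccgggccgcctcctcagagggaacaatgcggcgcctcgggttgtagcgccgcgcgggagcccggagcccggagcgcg
Mgat5: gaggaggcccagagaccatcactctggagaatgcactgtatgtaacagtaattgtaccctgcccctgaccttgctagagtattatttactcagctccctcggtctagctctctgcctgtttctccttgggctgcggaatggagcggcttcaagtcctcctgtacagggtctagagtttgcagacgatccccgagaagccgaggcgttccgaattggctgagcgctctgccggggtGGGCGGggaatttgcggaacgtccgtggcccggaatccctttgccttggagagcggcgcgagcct
The Mgat5b window held 1 E-box, CAGATG at bases 185 to 190 of the window, and no GC box. The Mgat5 window held the reverse, 1 GC box at bases 236 to 241 and no E-box. Of 32851 promoter windows in the table, 72.3% held an E-box and 35.7% a GC box, so both motifs are common. G and C made up 73% of the Mgat5b window, with 36 CpG pairs, and 58.0% of the Mgat5 window, with 18, against medians of 52.7% and 7 over all windows. These are matches of letters and no binding was measured.

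Values are log2 after robust multi-array averaging (RMA), and differences were taken between arrays only. Where the brightness of different genes or marker lists is given, it does not measure their relative amounts. Array medians lay between 5.38 and 5.45 and lower quartiles between 3.73 and 3.85. The values come without detection calls, and one near the lower quartile marks only a dim signal. For the labelled cell type 10 astrocyte markers were read, and none fell below the lower quartile on any array. That was also so for the lists of mature oligodendrocyte, oligodendrocyte precursor, neuron and ependymal markers, so it does not single out astrocytes. The mean of the astrocyte markers was 9.01 ± 0.17 (SD, n = 3) at 0 weeks, 8.37 ± 0.17 (SD, n = 3) at 3 weeks, 8.79 ± 0.27 (SD, n = 3) at 12 weeks and 8.53 ± 0.32 (SD, n = 3) in GnT-IX-deficient mice. Mature oligodendrocyte markers (9 of 10 measured) were bright too, with group means of 9.24 to 9.93. So were oligodendrocyte precursor markers (4 of 5 measured), with group means of 9.13 to 9.94. Microglial markers (11 of 12 measured) averaged between 5.20 and 5.82 on the 0-week arrays, 6.67 and 9.0 on the 3-week arrays, 8.02 and 9.19 on the wild-type 12-week arrays and 7.41 and 8.53 on the GnT-IX-deficient arrays. Slc1a3, which encodes GLAST, averaged 8.35 ± 0.44 (SD, n = 3) at 0 weeks and 7.0, 7.30 and 7.27 in the other groups. In such mixed samples, fewer cells of a type and less RNA per cell cannot be told apart.

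The first question is what the genotype did to the transcripts of the pathway. Mgat5b was lower in GnT-IX-deficient mice, and it was the 1 of 6 measured members whose difference passed the test. The GnT-IX-deficient arrays read 3.70, 4.19 and 4.06, and the wild-type arrays at the same 12 weeks read 5.96, 5.88 and 5.57. All 3 GnT-IX-deficient arrays lay below the 9 wild-type arrays of all times, which ranged from 5.57 to 6.49. Mgat5b fell by 1.82 on the log2 scale (SE 0.21, 95% interval -2.26 to -1.38, limma adjusted p = 0.00159), far beyond the SD of 0.25 and 0.21 within the groups (n = 3 each). It was the largest fall among the 19505 genes, and 15 genes, all higher, differed by more. Of these, Ttr (3.94), Kl (2.64), Otx2 (2.60), Folr1 (2.53), Kcnj13 (2.04) and F5 (1.86) belong to the list of choroid plexus markers used here, and none of them was called. The GnT-IX-deficient values were close to the lower quartiles of the arrays, a range in which RMA compresses differences. Neither the kind of mutation nor whether the probes of the cluster lie in the part of the gene that it changes is given. The remaining signal thus does not show how much intact transcript was left.

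Limma called 0.0256% of all genes in this comparison, which is 5 genes, and 0.00513% as lower, which is Mgat5b alone. Without GnT-IX-deficient replicate 3 it called 49 genes (46 higher and 3 lower), without replicate 1 of that group 9 (7 higher and 2 lower) and without wild-type 12-week replicate 3 it called 3 (2 higher and 1 lower). Besides Mgat5b, the genes called with all arrays were Gm3893 (higher by 3.02), Emb (2.62), Fam205a2 (1.81) and Cd55 (1.59), named here because the count is small and after their values were seen. Fam205a2 belongs to a family of similar mouse genes, and the mean of its clusters differed by 0.92 (adjusted p = 0.399), so its value is uncertain. Without replicate 3 of the wild-type 12-week group Fam205a2 also missed the threshold (adjusted p = 0.0719). Cd55 missed it without replicate 1 or 3 of that group (adjusted p = 0.0808 and 0.109) or without GnT-IX-deficient replicate 2 (0.179). Its wild-type 12-week values of 2.92, 3.42 and 3.26 lay below the lower quartiles of those arrays, so its signal there was dim.

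**Figure D1:**
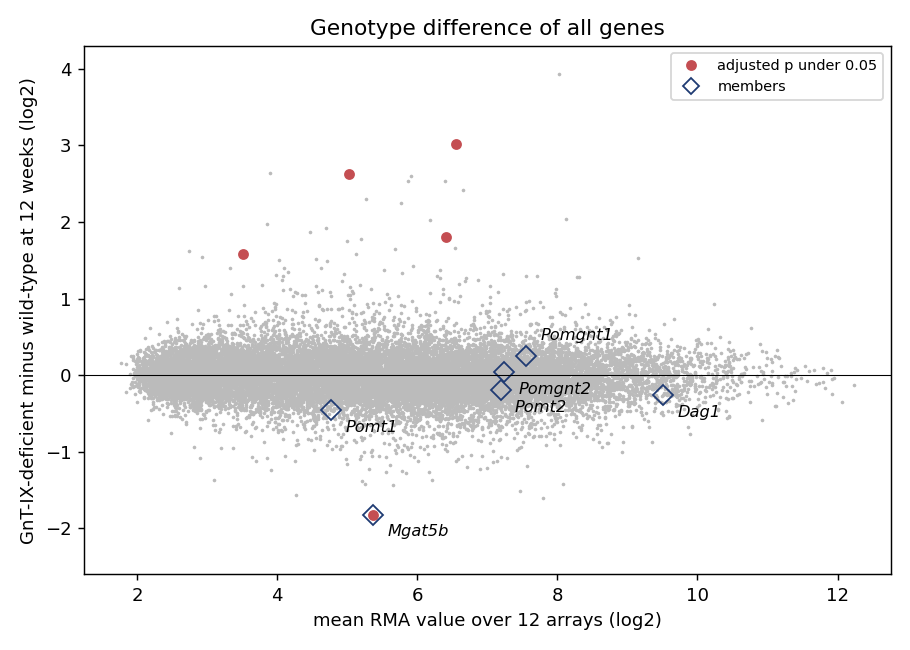
Mean RMA value over 12 arrays (log2, horizontal axis) against the log2 difference between GnT-IX-deficient and wild-type mice at 12 weeks (vertical axis), 1 point per gene. Red points are the 5 genes with an adjusted p under 0.05 and blue diamonds are the 6 measured members, of which Mgat5b, at -1.82, lies below all other genes.

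Choroid plexus markers lay above the wild-type range in GnT-IX-deficient replicates 1 and 2 but not in replicate 3, by their mean. The mean of the 9 measured markers was 8.70, 7.59 and 5.95 in GnT-IX-deficient replicates 1, 2 and 3 and between 4.68 and 6.29 on the 9 wild-type arrays, although no marker of this list was called singly. Ependymal markers (7 of 8 measured) averaged 6.68, 7.84 and 7.43 in the GnT-IX-deficient replicates and between 6.06 and 6.80 in wild-type arrays. By this mean replicate 1 lay within the wild-type range. Replicate 3, whose choroid plexus mean lay within the wild-type range, read 4.06 for Mgat5b. Without replicate 1, which had the highest choroid plexus mean, Mgat5b differed by -1.68 (adjusted p = 0.0168). Among the called genes, Gm3893 read 9.30, 8.83 and 8.24 in GnT-IX-deficient replicates 1, 2 and 3, the order of their choroid plexus means. So ordered too were Emb (7.25, 6.89 and 6.46) and Fam205a2 (8.30, 7.59 and 7.38). Cd55 (4.58, 5.16 and 4.62) and Mgat5b (3.70, 4.19 and 4.06) were not, and both ran in the order of the ependymal means. An order of 3 arrays is easily matched, and how many of all genes ran in either order was not counted. The part of choroid plexus or ependymal RNA in the genotype differences was not tested.

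**Figure D2:**
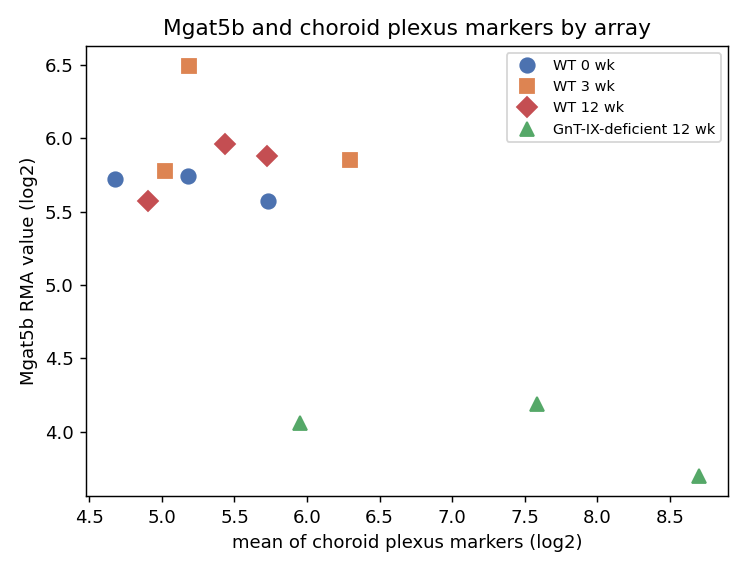
Mgat5b (RMA value, log2, vertical axis) against the mean of 9 choroid plexus markers (log2, horizontal axis), 1 point per array and 1 colour and shape per group. The 3 GnT-IX-deficient arrays sit between 3.70 and 4.19 over choroid plexus means of 5.95 to 8.70, and the 9 wild-type arrays sit at or above 5.57.

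Mgat5, which encodes the N-glycan branching enzyme GnT-V, is the gene most closely related to Mgat5b. It read 7.01, 6.78 and 6.85 in GnT-IX-deficient mice and 7.39, 7.01 and 7.34 in wild-type mice at 12 weeks, so the lowest wild-type array met the highest GnT-IX-deficient one. The difference was -0.37 (SE 0.24, 95% interval -0.88 to 0.14, adjusted p = 0.785). No rise of Mgat5 beside the fall of Mgat5b was detected, and the 95% interval ends at 0.14 on the upper side.

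Pomt1, a subunit of the enzyme that attaches the mannose, was the other member whose GnT-IX-deficient values stood apart. Its GnT-IX-deficient arrays read 4.46, 4.60 and 4.25, and the wild-type 12-week arrays read 4.64, 4.96 and 5.09. The 3 values also lay below those of the other 6 wild-type arrays, which ran from 4.76 to 5.07. The difference was -0.46 (SE 0.18, 95% interval -0.84 to -0.084), with an unadjusted p of 0.0199 that did not survive adjustment (adjusted p = 0.627). Over all genes, the 3 GnT-IX-deficient arrays lay below all 9 wild-type arrays for 0.989%, and the ranges of the groups at 12 weeks did not overlap for 10.8%. Both were so for Mgat5b and Pomt1 and for no other measured member. An unadjusted p under 0.05 was given to 6.99% of all genes, and among the members to these 2.

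The other members were not called between genotypes. Pomt2, the partner of Pomt1, differed by -0.20 (95% interval -0.63 to 0.23) and Dag1 by -0.26 (-0.69 to 0.16). Pomgnt1, whose product makes the chain on which GnT-IX acts, differed by 0.25 (-0.20 to 0.70). Pomgnt2 differed by 0.037 (-0.34 to 0.41), with GnT-IX-deficient values of 7.26, 7.31 and 7.28 between wild-type values of 7.11 and 7.42. Their adjusted p-values lay between 0.813 and 0.977. The intervals reach 0.70 on the log2 scale, so differences up to that size could go undetected with 3 arrays a group.

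The second question is how cuprizone changed these transcripts in wild-type cells. No measured member passed the test at 3 or 12 weeks. Limma called 3.24% of all genes at 3 weeks against 0 weeks, 2.64% at 12 against 0 weeks and 0.082% at 12 against 3 weeks, so with 6 members a count of 0 is near the background. At an unadjusted p under 0.05, 2 members stood out at 3 weeks, 2 at 12 weeks and none between 3 and 12 weeks, where 16.1%, 15.1% and 11.4% of all genes did. Ranges without overlap were found for 2 members (Mgat5b and Pomt2) at 3 weeks, 1 (Pomt2) at 12 weeks and none between 3 and 12 weeks, against 21.2%, 20.8% and 15.9% of all genes. The first and second comparisons share the 0-week arrays.

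No change of Mgat5b during cuprizone was detected in wild-type cells. It read 5.72, 5.57 and 5.74 at 0 weeks, 5.78, 6.49 and 5.85 at 3 weeks, and 5.96, 5.88 and 5.57 at 12 weeks. The 3-week arrays all lay above the 0-week ones, with replicate 2 well above the rest, and the 12-week arrays overlapped both. By group mean the order was 3 weeks (6.04 ± 0.39, SD, n = 3), 12 weeks (5.80 ± 0.21, SD, n = 3), 0 weeks (5.68 ± 0.09, SD, n = 3) and the GnT-IX-deficient group (3.98 ± 0.25, SD, n = 3). Neighbouring wild-type groups in that order differed by less than the larger SD, and the step to the GnT-IX-deficient group was larger than either SD. The difference was 0.36 (95% interval -0.078 to 0.80, adjusted p = 0.426) at 3 weeks and 0.13 (-0.31 to 0.57, adjusted p = 0.845) at 12 weeks. Without 3-week replicate 2 the first value was 0.14.

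**Figure D3:**
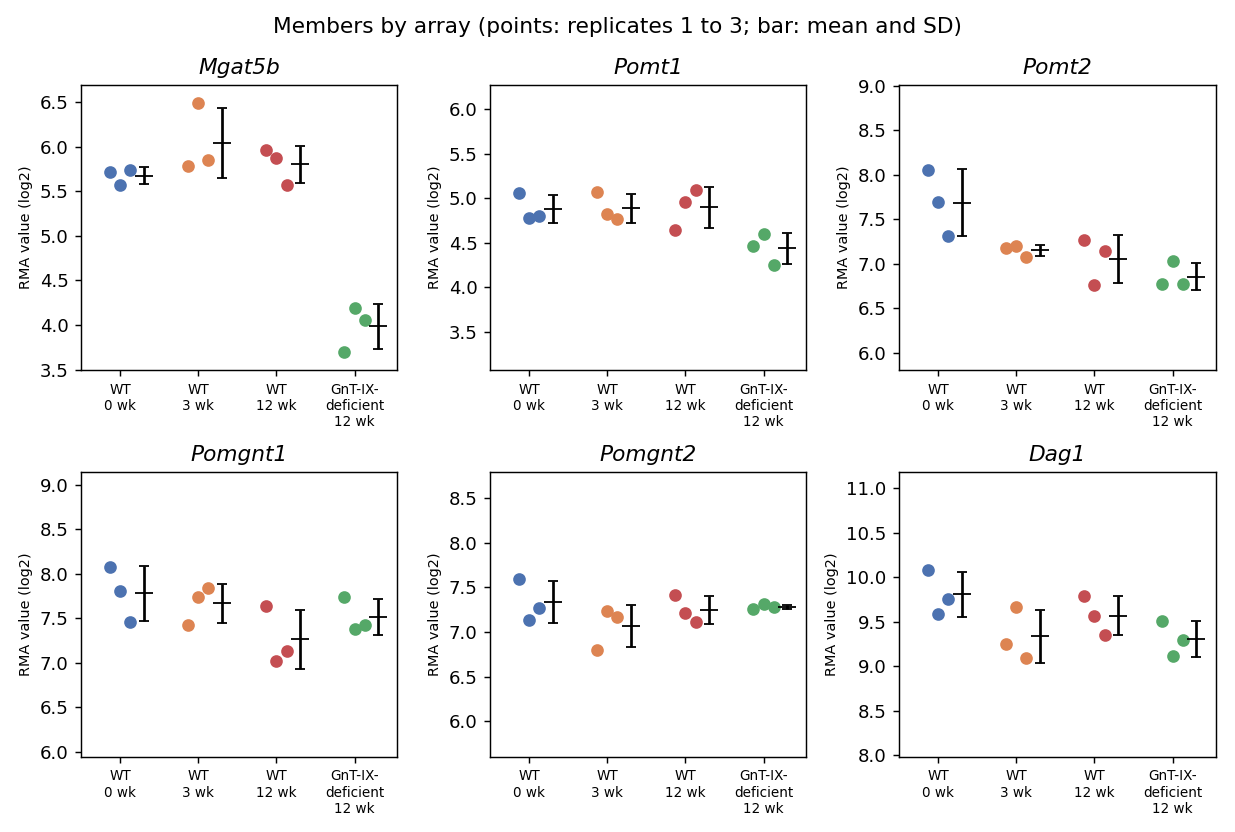
RMA values (log2, vertical axis, the same span of 3.2 in each panel) of the 6 measured members by group (horizontal axis). Points are replicates 1 to 3 and black bars are the mean and SD. Mgat5b drops to 3.70 to 4.19 in GnT-IX-deficient mice, and the untreated arrays of Pomt2, at 7.31 and above, lie over all other arrays.

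Pomt2 had the largest cuprizone difference among the members. It read 8.06, 7.70 and 7.31 in untreated mice, 7.18, 7.20 and 7.08 after 3 weeks, 7.27, 6.76 and 7.14 after 12 weeks, and 6.77, 7.03 and 6.77 in GnT-IX-deficient mice. All 9 cuprizone arrays, from 6.76 to 7.27, lay below the 3 untreated ones, which was so for 2.57% of all genes. The difference from 0 weeks was -0.54 (SE 0.20, 95% interval -0.96 to -0.11) at 3 weeks and -0.63 (SE 0.20, -1.06 to -0.21) at 12 weeks. The unadjusted p-values were 0.0171 and 0.0064, and neither passed after adjustment over all genes (adjusted p = 0.184 and 0.125). With array weights in the fit the 12-week difference was -0.70 and passed (adjusted p = 0.0464), within a range of 0.0464 to 0.444 over all alternatives.

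No difference of Pomt1 was detected among wild-type mice. It read 5.06, 4.78 and 4.80 at 0 weeks, 5.07, 4.82 and 4.76 at 3 weeks and 4.64, 4.96 and 5.09 at 12 weeks, so the groups overlapped throughout. The differences from 0 weeks were 0.0033 (95% interval -0.37 to 0.38) and 0.017 (-0.36 to 0.39), and their signs turned under other scalings.

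Pomgnt1 read 8.07, 7.81 and 7.46 at 0 weeks, 7.42, 7.74 and 7.84 at 3 weeks, 7.64, 7.02 and 7.13 at 12 weeks, and 7.74, 7.38 and 7.42 in GnT-IX-deficient mice. Its 12-week mean was the lowest of the 4 groups, but every neighbouring pair of groups overlapped. The difference at 12 against 0 weeks was -0.52 (SE 0.21, 95% interval -0.97 to -0.066, unadjusted p = 0.0273, adjusted p = 0.255), and at 3 against 0 weeks it was -0.11 (-0.56 to 0.34). Between 12 and 3 weeks it was -0.40 (-0.85 to 0.047, adjusted p = 0.495).

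Pomgnt2, which starts the chain that carries the laminin-binding polymer, read 7.60, 7.14 and 7.27 at 0 weeks, 6.80, 7.24 and 7.17 at 3 weeks and 7.42, 7.21 and 7.11 at 12 weeks. These ranges overlapped, and the 4 group means spanned only 7.07 to 7.34. The differences from 0 weeks were -0.27 (95% interval -0.64 to 0.11) and -0.09 (-0.47 to 0.29), with adjusted p-values of 0.515 and 0.878.

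Dag1, the dystroglycan gene, read 10.08, 9.59 and 9.75 at 0 weeks, 9.25, 9.67 and 9.09 at 3 weeks, 9.79, 9.56 and 9.35 at 12 weeks, and 9.51, 9.11 and 9.29 in GnT-IX-deficient mice. The second 3-week array reached into the untreated range, and the 12-week arrays overlapped both groups. The difference was -0.47 (SE 0.20, 95% interval -0.90 to -0.042, unadjusted p = 0.0335, adjusted p = 0.255) at 3 weeks and -0.24 (-0.67 to 0.19, adjusted p = 0.647) at 12 weeks. Between 12 and 3 weeks it was 0.23 (-0.20 to 0.66).

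**Figure D4:**
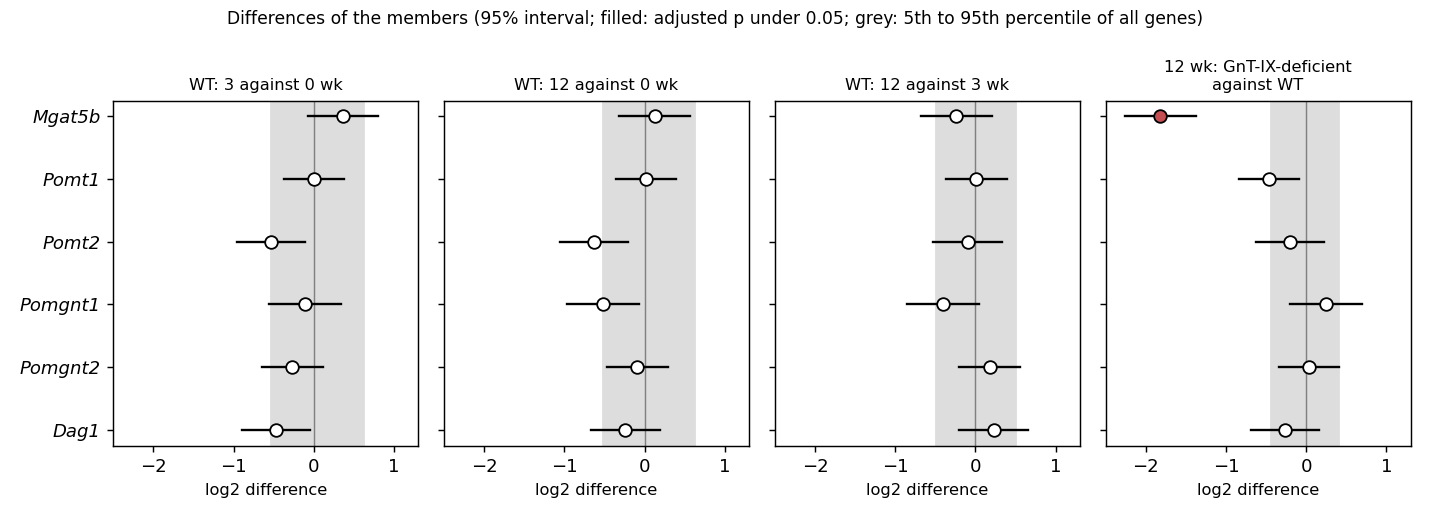
Log2 differences (horizontal axis) of the 6 measured members (vertical axis) in the 4 comparisons, with 95% intervals from limma and, in grey, the range from the 5th to the 95th percentile of all genes. The filled point, Mgat5b between genotypes at -1.82, is the only one with an adjusted p under 0.05.

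Markers of other cells and of astrocytes moved in the same comparisons. Only markers with a limma adjusted p under 0.05 are counted here as risen or fallen, and medians are over all measured markers of a list. At 3 weeks 5 of 10 astrocyte markers fell and 1 rose, with a list median of -0.88, 8 of 11 microglial markers rose, with a median of 2.32, and 2 of 8 neuron markers rose, with a median of 0.355. At 12 weeks 9 of 11 microglial markers rose, with a median of 3.37, and 4 of 7 endothelial markers rose, with a median of 1.15. Of 9 mature oligodendrocyte markers 1 fell, with a list median of -0.72, and of 10 astrocyte markers 1 rose and 1 fell, with a median of -0.42. No oligodendrocyte precursor marker was called at either time, with list medians of 0.75 at 3 weeks and 0.045 at 12 weeks. The untreated Pomt2 and Dag1 values thus came from arrays with the lowest microglial means and the highest group mean of astrocyte markers. Their part in the member values was not tested.

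Across the 9 wild-type arrays the members did not move as 1 group. Pearson's r between members, given here as a description over arrays that share their groups, was 0.81 for Pomgnt2 with Dag1, 0.76 for Pomt2 with Pomgnt1 and 0.62 for Pomt2 with Dag1. Mgat5b had r between -0.34 and 0.15 with the other 5, and Pomt1 between -0.34 and 0.074 with the rest. Neither gene thus had a positive r above 0.15 with any other member.

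The genes most like each member were sought among 9750 genes above the median level, or 9749 for members that are themselves above it, by Pearson's r over the 9 wild-type arrays. For Mgat5b they were Hs2st1 (0.98), a heparan sulfate sulfotransferase gene, Tshz1 (0.97) and Cdh24 (0.95). For Pomt2 they were Eci1 (0.98), Frmpd1 (0.94) and Eps8 (0.94), and for Pomt1 Shisa5 (0.93), Pinx1 (0.89) and Cpsf6 (0.85). For Pomgnt1 they were Map1a, Hapln2 and Qsox1 (0.98, 0.98 and 0.97). For Pomgnt2 they were Cluh, Fam160a2 and Smarcd3 (0.97, 0.95 and 0.93), and for Dag1 Glis2, Iqsec1 and Npepl1 (0.97, 0.96 and 0.96). With so many genes and 9 arrays such values arise easily, and no test was made.

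The rest of the pathway was taken from 7 lists of 67 genes, of which 58 were measured. At 3 weeks 4 of the 58 were called (6.90%), where 3.24% of all genes were. All 4 fell and none rose, and 1.63% of all genes were called as lower. The lists were chosen with earlier results of these data known. In the 12-week, the 12-against-3-week and the genotype comparisons limma called none of the 58. An unadjusted p under 0.05 was given to 11 of them (19.0%) at 3 weeks, 11 (19.0%) at 12 weeks, 6 (10.3%) at 12 against 3 weeks and 6 (10.3%) between genotypes. The shares of all genes in the same order were 16.1%, 15.1%, 11.4% and 6.99%. The 4 genes called as lower at 3 weeks modify the outer ends of the chains or encode laminin chains listed here among dystroglycan ligands. Binding to dystroglycan was not measured.

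Lama2 and Lama3 encode laminin alpha chains, the first of them the main dystroglycan ligand of the basement membrane. Lama2 read 7.64, 8.05 and 7.81 at 0 weeks and 6.51, 6.77 and 6.76 at 3 weeks, and it fell by 1.15 (SE 0.17, adjusted p = 0.00273). At 12 weeks it read 7.42, 7.39 and 7.28, all above the 3-week arrays and below the untreated ones. Lama3 read 7.37, 7.31 and 7.33 at 0 weeks and 5.69, 5.20 and 5.49 at 3 weeks, and it fell by 1.88 (SE 0.24, adjusted p = 0.00119). Its 12-week arrays read 6.13, 6.27 and 6.89, again between the other groups. The differences between 12 and 3 weeks, 0.68 for Lama2 and 0.97 for Lama3, did not pass (adjusted p = 0.125 for both), nor did Lama3 at 12 against 0 weeks (-0.91, adjusted p = 0.0645). The latter passed in 4 of 22 alternatives, with array weights (adjusted p = 0.0241), with only the 6 arrays compared (0.0355) and without wild-type 12-week replicate 3 (0.0382) or GnT-IX-deficient replicate 3 (0.0331), within a range of 0.0241 to 0.259. Of 13 measured genes in the ligand list, these were the 2 that passed at 3 weeks, and the list median was -0.26 against -0.017 for all genes.

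Fut9 and Chst10 encode a fucosyltransferase of the Lewis X epitope and the sulfotransferase of the HNK-1 epitope, both of which can cap O-mannosyl chains. Fut9 read 9.25, 8.95 and 8.92 at 0 weeks and 8.08, 8.40 and 8.18 at 3 weeks, and it fell by 0.82 (SE 0.18, adjusted p = 0.0207). Chst10 read 7.66, 7.44 and 7.81 at 0 weeks and 6.37, 6.50 and 6.99 at 3 weeks, and it fell by 1.02 (SE 0.22, adjusted p = 0.0229). The groups did not overlap for either gene, which was so for 21.2% of all genes. Both calls depended on single arrays. Fut9 missed the threshold without 0-week replicate 1 or 2 (adjusted p = 0.107 and 0.0597) or 3-week replicate 1 or 3 (0.0904 and 0.0615). Chst10 missed it without 0-week replicate 1, 2 or 3 (0.0891, 0.0502 and 0.0809) or 3-week replicate 1 or 2 (0.104 and 0.0565). Of the 9 genes that extend or cap the branches, 5 were higher and 4 lower by sign, and only these 2 were called. The list median was 0.14, opposite in sign to both.

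**Figure D5:**
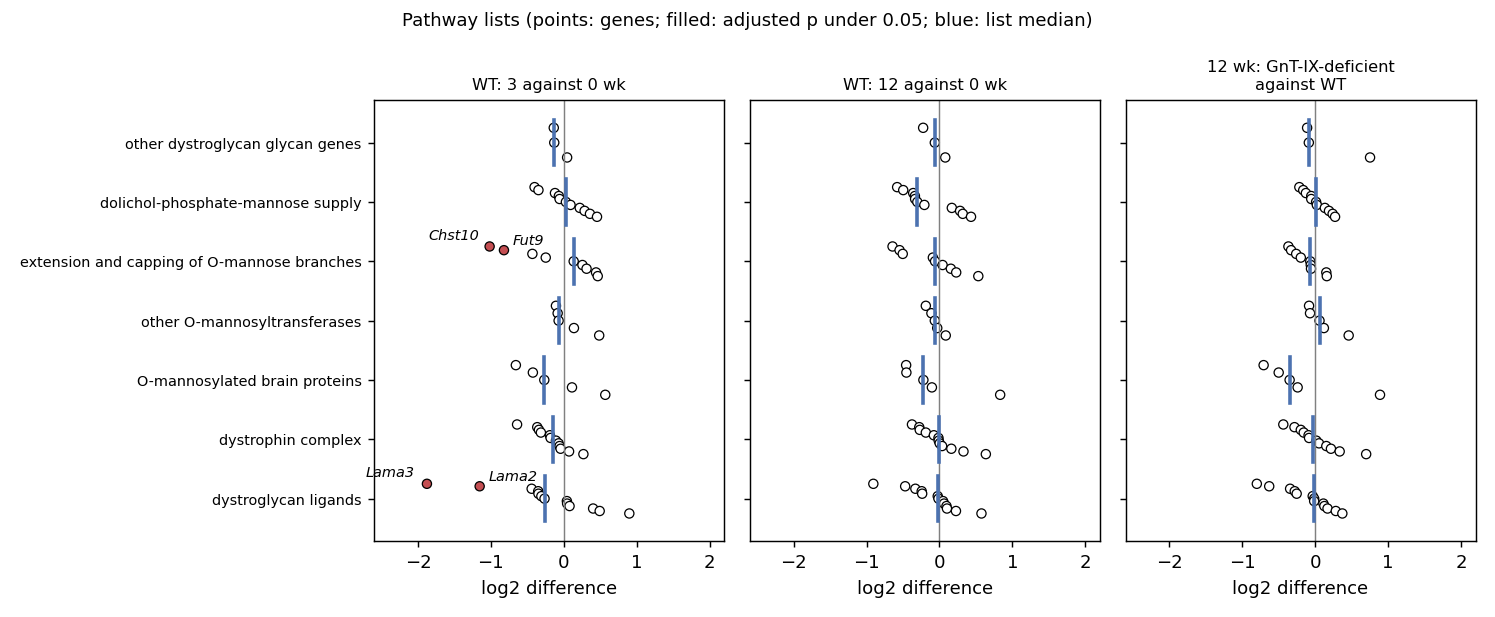
Log2 differences (horizontal axis) of 58 genes in 7 pathway lists (vertical axis) for 3 against 0 weeks, 12 against 0 weeks and the genotypes at 12 weeks. Each point is a gene, filled points had an adjusted p under 0.05 and blue bars are list medians. The 4 filled points, Chst10, Fut9, Lama2 and Lama3, are all lower at 3 weeks.

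The other lists held no gene past the threshold in any of the 4 comparisons. Among 3 of 8 measured genes of the remaining dystroglycan chain, B3galnt2 had the smallest p at 3 weeks (-0.13, adjusted p = 0.836) and at 12 weeks (-0.22, adjusted p = 0.694), Pomk at 12 against 3 weeks (-0.11, adjusted p = 0.861) and Large2 between genotypes (0.75, adjusted p = 0.732). Large2 read 6.24, 4.81 and 3.97 in GnT-IX-deficient replicates 1, 2 and 3, in the order of their choroid plexus means of 8.70, 7.59 and 5.95, and the third value lay below all wild-type 12-week arrays (4.06 to 4.42). Its difference was 0.14 without replicate 1 and 1.27 without replicate 3. The supply of dolichol-phosphate-mannose, the sugar donor of POMT, was represented by 11 of 12 genes, with medians of 0.03 at 3 weeks and -0.30 at 12 weeks. Its gene with the smallest p was Srd5a3 at 3 weeks (0.46, adjusted p = 0.252), Dpm2, a subunit of the donor's synthase, at 12 weeks (-0.50, adjusted p = 0.208) and at 12 against 3 weeks (-0.43, adjusted p = 0.395), and Nus1 between genotypes (0.24, adjusted p = 0.794). The 5 genes of other O-mannosyltransferases, which serve cadherins and plexins, were led by Tmtc2 at 3 weeks (0.49, adjusted p = 0.18) and at 12 against 3 weeks (-0.52, adjusted p = 0.27), by Tmem260 at 12 weeks (-0.19, adjusted p = 0.715) and by Tmtc1 between genotypes (0.46, adjusted p = 0.799). Tmtc1 read 7.37, 6.59 and 5.6 in GnT-IX-deficient replicates 1, 2 and 3, again in the order of their choroid plexus means, and the third value lay below all wild-type 12-week arrays (5.89 to 6.18). Its difference was 0.035 without replicate 1 and 0.92 without replicate 3. Nus1 (6.37, 6.39 and 6.31), Mgat5 (7.01, 6.78 and 6.85) and Egflam (6.21, 5.36 and 5.54) did not run in the order of the choroid plexus means. How many of all genes did was not counted. The part of choroid plexus RNA in the Large2 and Tmtc1 values was not tested.

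Proteins that carry these glycans in brain were also without a call. Ptprz1, which encodes a receptor phosphatase and known carrier of GnT-IX products, read 9.69, 9.60 and 9.49 at 0 weeks, 9.17, 9.38 and 8.96 at 3 weeks and 9.24, 9.53 and 9.35 at 12 weeks. It read 9.25, 8.41 and 9.41 in GnT-IX-deficient mice, where replicate 2 was low, and the genotype difference was -0.35 (95% interval -0.83 to 0.13, adjusted p = 0.785). Of the other carriers, Ncan had the smallest p at 3 weeks (-0.66, adjusted p = 0.269) and Vcan at 12 weeks (0.83, adjusted p = 0.242). Cd24a, a small adhesion glycoprotein gene, read 4.14, 4.60 and 4.94 in GnT-IX-deficient mice and 3.85, 3.56 and 3.60 in wild-type mice at 12 weeks. Its difference of 0.89 did not pass (adjusted p = 0.412), and its wild-type values lay near the lower quartiles of the arrays. Its GnT-IX-deficient values ran opposite to the choroid plexus means, while the ependymal means of 6.68, 7.84 and 7.43 were in neither order. The part of either cell type in the Cd24a difference was not tested.

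In the dystrophin complex, which holds dystroglycan at the membrane, 12 of 14 genes were measured. Dtna, the alpha-dystrobrevin gene, was at -0.64 at 3 weeks (SE 0.17, adjusted p = 0.0585) and passed under 7 of 22 alternatives, with a range of 0.0318 to 0.172. The genes with the smallest p elsewhere were Sgcd at 12 weeks (0.64, adjusted p = 0.286), Utrn at 12 against 3 weeks (0.40, adjusted p = 0.442) and Sntb2 between genotypes (0.70, adjusted p = 0.523). Sntb2 read 7.02, 6.60 and 6.27 in GnT-IX-deficient replicates 1, 2 and 3, also the order of their choroid plexus means, whose part was not tested. Among the ligands, Egflam, which encodes pikachurin, had the smallest p between genotypes, with values of 6.21, 5.36 and 5.54 against 6.30, 6.72 and 6.49 (-0.80, adjusted p = 0.467).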

How the data were processed

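RNA of 12 samples was hybridised to 1 array each. The deposited values are log2 values per transcript cluster, which the authors made by RMA in Expression Console 1.4, per the submitters' processing notes. RMA gives arrays a like distribution and compresses differences of dim transcripts. The labels' protocols name alternative RNA kits without saying which array had which. The table held 22206 clusters, of which 19572 had 1 symbol, all matched by Entrez identifier to RefSeq (GRCm38.p6), none had several, and 2634 are unnamed here. For 55 genes with several clusters the one brightest over the 12 arrays was used, which left 19505 genes with no filter. All 6 measured members had 1 cluster each.

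All 12 arrays entered one two-sided limma fit (lmFit, eBayes; limma 3.58.1, R 4.3.3) that left 8 residual degrees of freedom, with p-values adjusted over all genes by Benjamini-Hochberg and called under 0.05. The labels do not say whether replicate numbers pair the arrays, and the main fit had no replicate block. Of 18 same-numbered pairs, 6 had correlated deviations over 0.1, with a range of -0.28 to 0.22. Different-numbered pairs ranged from -0.30 to 0.34, so these values do not settle the pairing. No columns were identical. The text names every measured member, Mgat5, Slc1a3, up to 4 genes past the threshold per list and comparison or else the 1 with the smallest p, and the 3 genes most like each member. Members and lists were chosen with earlier results of these data known. The alternatives were other normalizations, centring, a filter on the dimmest 30% of genes, cluster choice, variance model, array weights, arrays in the fit, the replicate block and the fit without each array in turn. Plots were made in matplotlib 3.10.9.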

Additional observations from a re-analysis of the deposited data

How the results depend on the processing

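The fall of Mgat5b between genotypes passed the threshold in all 22 alternatives, at -1.94 to -1.68 with adjusted p from 0.000537 to 0.0190, and no other member was called there. No member was called at 3 weeks or between 12 and 3 weeks in any alternative, and at 12 against 0 weeks 1 (Pomt2) was called with array weights. The pairing of replicate numbers was tried as a replicate block, which gave Mgat5b an adjusted p of 0.00642 and counts of 543, 442, 15 and 5 genes called (main 632, 514, 16 and 5) and changed no call of a member. Counts over all genes moved more. With array weights 919 genes were called at 12 against 0 weeks (640 higher and 279 lower) and 33 at 12 against 3 weeks, where trend and robust variance gave 30, and both the dim-gene filter and the 6 arrays compared gave 9. With all transcript clusters tested 8 were called between genotypes. Leaving out each array gave 192 to 683 genes at 3 against 0 weeks, with 192, 244 and 360 without 0-week replicates 1, 2 and 3 and 270 and 385 without 3-week replicates 1 and 3. At 12 against 0 weeks it gave 77 to 666, with 144 and 105 without 0-week replicates 1 and 2 and 77 and 276 without 12-week replicates 2 and 3. At 12 against 3 weeks limma called 0 to 146, with 146, 4 and 0 (and 1751 at an unadjusted p under 0.05) without 3-week replicates 1, 2 and 3, 2 and 1 without wild-type 12-week replicates 2 and 3, and 38 and 35 without GnT-IX-deficient replicates 1 and 3. Between genotypes it gave 3 to 49, with 3 without wild-type 12-week replicate 3 and 9 and 49 without GnT-IX-deficient replicates 1 and 3. The cause was not tested.

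The sign of differences near 0 turned. Pomt1 at 3 against 0 weeks was -0.0097 with quantile normalization repeated, -0.037 with median centring and -8.4e-05 with array weights. At 12 against 0 weeks it was -0.022 and -0.037 with the first and second of these, and at 12 against 3 weeks -0.012 with quantile normalization repeated and -0.019 with cyclic loess. Leaving out each array gave Pomt1 -0.09 to 0.093, -0.08 to 0.145 and -0.083 to 0.142 in these comparisons. It gave Pomgnt1 -0.27 to 0.032 at 3 against 0 weeks, Pomgnt2 -0.19 to 0.042 at 12 against 0 weeks and -0.032 to 0.12 between genotypes, and at 12 against 3 weeks Pomt2 -0.20 to 0.052 and Mgat5 -0.32 to 0.12. None of these was called. Groups of 3 arrays limit how precise each value can be, and without detection calls signal over background was not measured.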
